A study of Mus musculus with 10 samples.

Results

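The genes described here are 35 skeletal muscle genes, a fixed list of sarcomere, calcium handling and energy genes of the muscle fibre. They were taken by symbol from the table of all genes, which holds 15075 genes, and each of the 35 had 1 row. They were measured in interscapular brown adipose tissue (iBAT) of 5 Control and 5 AdCKO mice by RNA sequencing, with 1 library for each mouse. AdCKO mice lacked the cardiolipin synthase gene Crls1 in adipocytes. Both groups carried Crls1 alleles with exon 4 between loxP sites on a C57BL/6 background, and only AdCKO mice also carried Adipoq-Cre, a transgene active in white and brown adipocytes. The sample labels call the Control mice wild-type. All mice were 20 weeks old and were housed at room temperature (22°C in the study's methods). Values were normalized reads per kb of counted exon, for polyadenylated RNA, so levels of different genes can be set side by side per length. The comparison asks which muscle genes differed in every AdCKO library and which differed in single libraries.

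In the muscle fibre, myosin thick filaments pull on actin thin filaments between Z-discs. The troponin and tropomyosin proteins of the thin filament make this pull depend on calcium, which the ryanodine receptor releases from the sarcoplasmic reticulum and the SERCA pump returns to it. Fast and slow fibres use different isoforms of myosin, troponin and calcium proteins. Brown adipocytes arise from precursors related to those of skeletal muscle, and the interscapular depot lies over the muscles of the upper back.

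Muscle genes have short sequence motifs near their start sites, of which the E-box CAGCTG, bound by myogenic factors such as MyoD, is one. The 250 bases before the annotated start are printed for 5 members with different patterns across libraries. Acta1 and Des were higher than Control in each AdCKO library, Ckm and Myh4 were far above Control in 3 of them, and Tnnc1 was far above Control in 1. Capitals mark each CAGCTG, and the sequences run 5′ to 3′ on the strand of the gene, from RefSeq.
Acta1 (GRCm38.p6, chr8:123894776-123895025, minus strand): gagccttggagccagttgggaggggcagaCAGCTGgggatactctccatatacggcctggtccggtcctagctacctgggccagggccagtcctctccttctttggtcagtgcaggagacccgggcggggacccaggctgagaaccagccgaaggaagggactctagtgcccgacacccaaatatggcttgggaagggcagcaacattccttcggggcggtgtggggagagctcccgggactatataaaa
Des (GRCm38.p6, chr1:75360042-75360291, plus strand): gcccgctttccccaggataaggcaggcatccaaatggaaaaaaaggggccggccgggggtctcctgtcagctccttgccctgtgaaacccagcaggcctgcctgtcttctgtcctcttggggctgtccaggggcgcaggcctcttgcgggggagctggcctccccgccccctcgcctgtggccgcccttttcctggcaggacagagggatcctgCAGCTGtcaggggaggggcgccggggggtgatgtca
Ckm (GRCm38.p6, chr7:19410844-19411093, plus strand): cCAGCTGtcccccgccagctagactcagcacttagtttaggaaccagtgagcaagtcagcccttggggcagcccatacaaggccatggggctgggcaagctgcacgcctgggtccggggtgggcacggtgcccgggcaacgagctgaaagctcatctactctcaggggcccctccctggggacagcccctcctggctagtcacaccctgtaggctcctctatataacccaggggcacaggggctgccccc
Myh4 (GRCm38.p6, chr11:67237562-67237811, plus strand): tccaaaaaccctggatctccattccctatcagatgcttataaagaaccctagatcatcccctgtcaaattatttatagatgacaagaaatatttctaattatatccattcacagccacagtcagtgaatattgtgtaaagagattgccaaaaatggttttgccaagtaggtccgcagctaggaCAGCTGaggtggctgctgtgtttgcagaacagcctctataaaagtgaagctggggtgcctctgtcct
Tnnc1 (GRCm38.p6, chr14:31208062-31208311, plus strand): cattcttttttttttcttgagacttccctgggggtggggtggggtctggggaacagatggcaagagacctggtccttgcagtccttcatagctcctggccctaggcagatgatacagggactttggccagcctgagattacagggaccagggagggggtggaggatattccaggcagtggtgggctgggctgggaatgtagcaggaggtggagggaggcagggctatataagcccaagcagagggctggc
CAGCTG, which reads the same on both strands, was present once in these windows of Acta1, Des, Ckm and Myh4 and was not matched in that of Tnnc1. RefSeq promoters of 300 bases, from 250 before to 50 after the start, were matched for 30 of the 35 members, and 16 of the 30 held CAGCTG, against 16.3% of the 32851 promoters in the table. Of slow-fibre members, Myl2 and Tnni1 held it and Myh7 and Tnnt1 did not. Of fast-fibre members, Myh4 and Atp2a1 held it and Myh1 and Myh2 did not. A link between this motif and the pattern across libraries was not tested. The wider E-box CANNTG, which includes CAGCTG, was present in 26 of the 30 members and in 72.3% of all promoters. Tnni2, Tnnt3, Neb, Actn3 and Sln had no promoter in the table.

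The deletion was visible in each AdCKO library. Crls1, which makes cardiolipin in the inner mitochondrial membrane, was at 813 to 1291 in Control and 193 to 249 in AdCKO (log2 fold change −2.27, SE 0.13, adjusted p = 3.53e-08 by limma). Adipocyte markers, including Adipoq, Plin1 and Ucp1, summed to 205232 to 232137 in Control and 128604 to 152944 in AdCKO, so both groups held adipose RNA. Normalized reads totalled 7615403 to 8171138 in Control libraries and 5419800 to 5843024 in AdCKO libraries. Since these totals come after normalization, sequencing depth is not known, and counting error is not given. No value in the table is 0, and low values appear to have been moderated between samples, so fold changes understate those of low genes. In bulk tissue, fewer cells of a type and less RNA per cell cannot be told apart.

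Summed levels of these muscle genes differed strongly between the AdCKO libraries themselves. The 35 genes together summed to 1224 to 1267 normalized reads per kb in the 5 Control libraries. In AdCKO 1 to 5 they summed to 12942, 44085, 1678, 18031 and 1561. AdCKO 1, 2 and 4 thus stood far apart from AdCKO 3 and 5, which were closer to Control than to the other AdCKO libraries. As a share of all normalized reads, the members took 0.0256% to 0.0271% in Control, and 0.474%, 1.52%, 0.0634%, 0.600% and 0.0523% in AdCKO 1 to 5. Much of the sum in AdCKO 3 and 5 was Des, at 625 and 488, and Tpm1, at 459 and 442. In Control, Des was at 209 to 238 and Tpm1 at 250 to 279. Both genes are also made outside skeletal muscle, so the sums of AdCKO 3 and 5 do not measure muscle RNA alone. Because AdCKO 1, 2 and 4 stood apart, the fold change of each tested member was also computed without them. This choice was made after seeing the data, and the values are shown in the plot of fold changes.

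**Figure D1:**
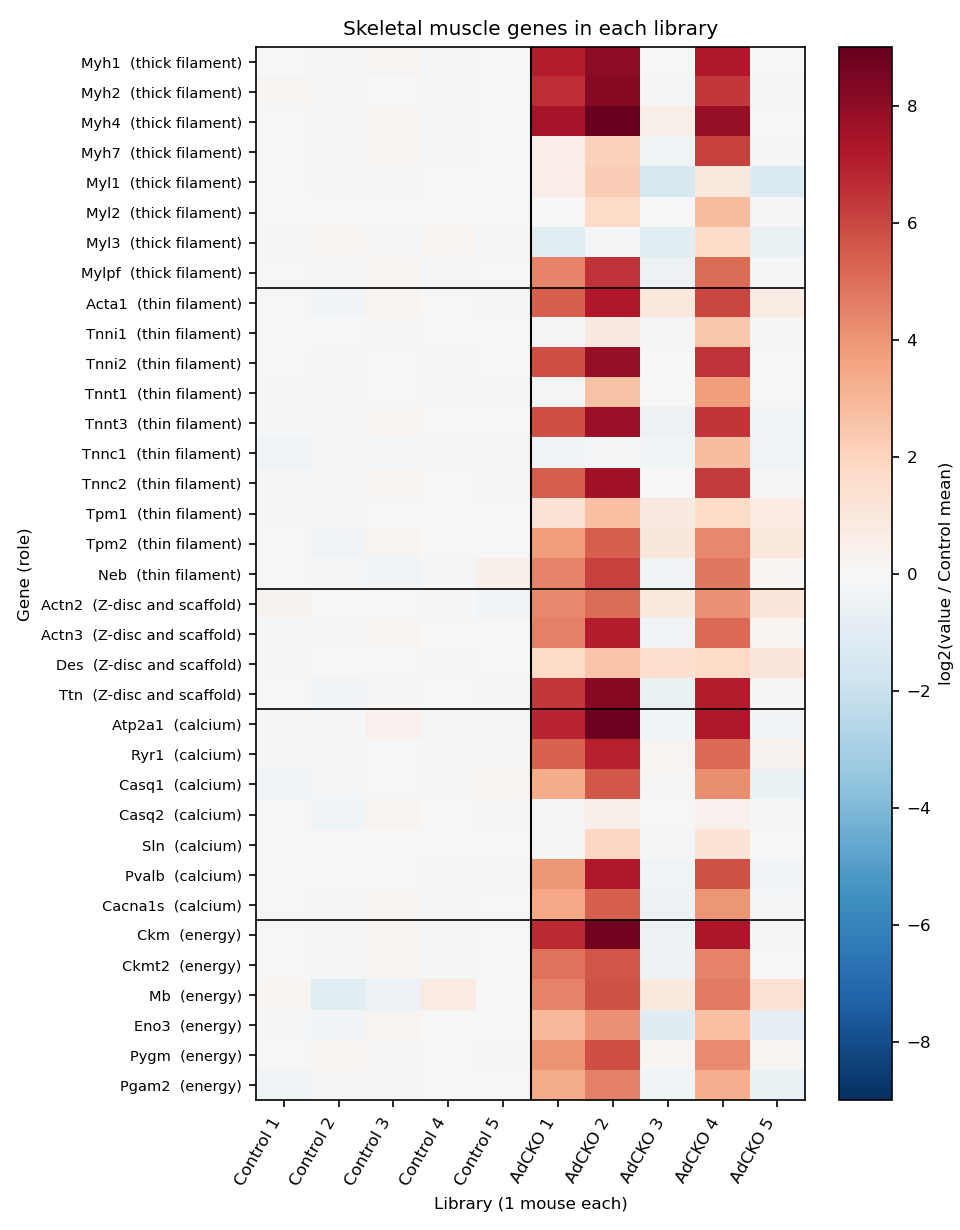
Colour shows the log2 ratio of each value to the Control mean of that gene, for the 35 members (rows, ordered by role) in the 10 libraries (columns). AdCKO 1, 2 and 4 are dark red for most members, with up to 887-fold for Myh4 in AdCKO 2, while AdCKO 3 and 5 are pale in either direction.

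The same contrast held gene by gene. In AdCKO 4, 35 of 35 members lay above every Control library (39.7% of all deposited genes did so, and 31.3% lay below). In AdCKO 2, 33 members lay above (38.8% of all genes) and 0 below (31.7%). AdCKO 1 had 29 members above (40.9%) and 3 below (32.0%). In AdCKO 3 only 8 members were above every Control library (38.1%) and 18 were below (33.9%), and AdCKO 5 had 8 above (36.5%) and 17 below (32.5%). Some of those below differed by very little at low, moderated values. Sln, for example, was at 5.12 and 5.30 in AdCKO 3 and 5 against 5.42 to 5.53 in Control. Others fell further, such as Myl1, at 138 and 159 against 330 to 397. The counts below Control do not separate these cases. The median ratio to the Control mean was 16.2, 48.2, 0.901, 22.0 and 0.947 in AdCKO 1 to 5, against 1.01 to 1.03 over all genes. More than 10-fold above the Control mean were 23, 24 and 24 members in AdCKO 1, 2 and 4, and 0 in AdCKO 3 and 5.

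Across all 10 libraries, limma's moderated test on log2(value + 1) was run over 11244 genes with a group mean of at least 10, with Benjamini-Hochberg adjustment and a threshold of 0.01. Of the 35 members, 32 were tested, and 16 of these had a Control mean under 10 and passed only through their AdCKO values. Acta1, Tpm1, Tpm2, Actn2, Des and Mb were called higher in AdCKO, 6 of 32 (18.75%), where 25.6% of all tested genes were called higher. No member was called lower (28.0% of all tested genes were), and at an unadjusted p under 0.05 by limma 25 members were higher and 0 lower, against 33.3% and 35.2% of all tested genes. At a looser threshold of 0.05, 24 members were called, all higher, against 65.6% of all tested genes in either direction. The median log2 fold change was 2.84 over the 32 members and −0.01 over all tested genes. The 26 members without a call included genes with a far larger fold change than some called genes, and their values spread widely among the AdCKO libraries. Without AdCKO 3 the number of higher calls was 23, and without AdCKO 5 it was 25. A robust trend gave 2 higher calls, Des and Tpm1, and array quality weights gave 25. The share of all tested genes called under these settings is not given here, so these counts lack a background. Groups did not overlap for 7 members, the 6 called genes and Ryr1, all higher in AdCKO (24.5% of all tested genes were higher without overlap).

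Without AdCKO 1, 2 and 4, the same test on 5 Control and 2 AdCKO libraries called 5 members higher (Acta1, Tpm1, Tpm2, Actn2 and Des), against 18.7% of all tested genes. It called 3 members lower (Myl1, Myl3 and Eno3), against 19.3%. The libraries left out were chosen for the high sums of these same members. The calls and p-values of this fit, here and below, are therefore not an independent test. The median log2 fold change over the 32 members was then −0.072. Both AdCKO 3 and AdCKO 5 were over 1.5 times the Control mean for 6 members. These were the 6 called with all 10 libraries, a fit that includes the same values. Both were under 1/1.5 of it for 3 members, Myl1, Myl3 and Eno3. The share of all genes past these limits in both libraries is not given here.

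**Figure D2:**
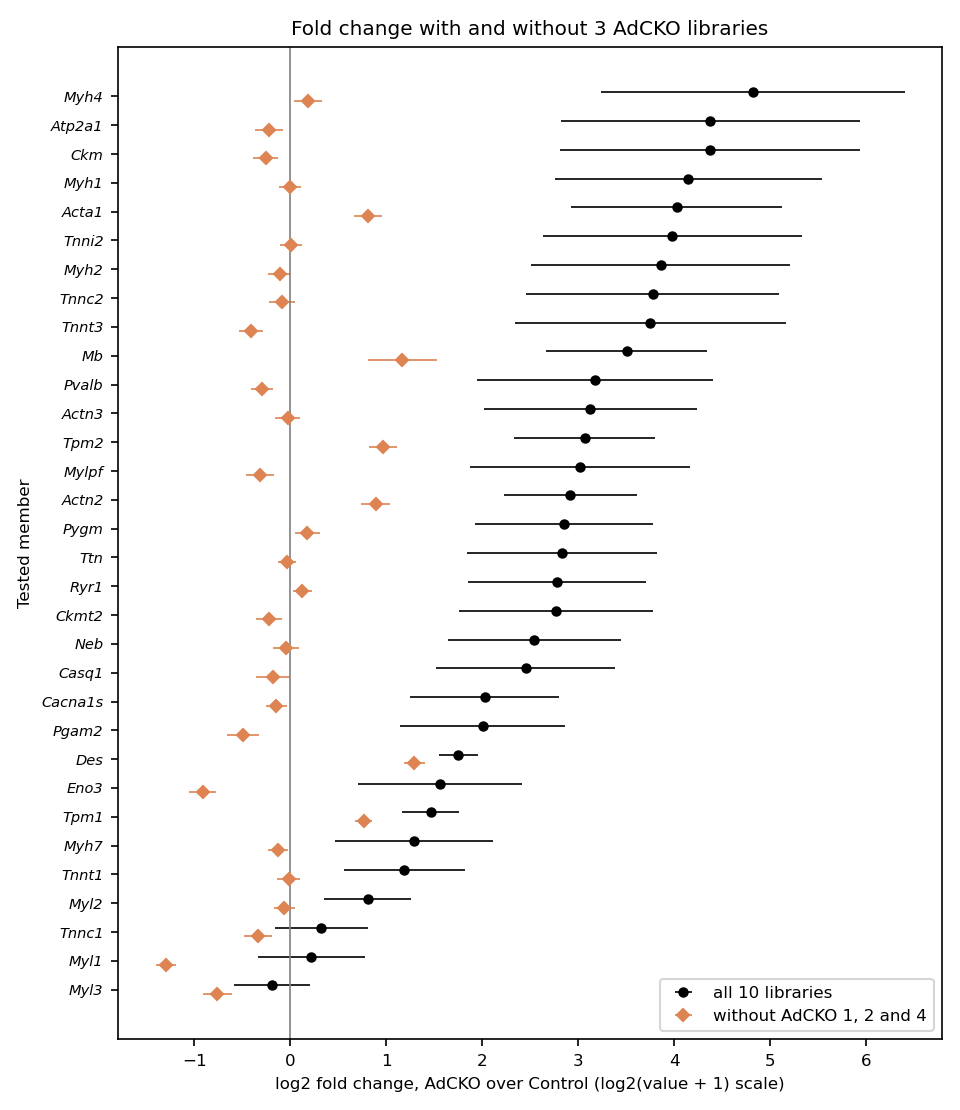
The log2 fold change of AdCKO over Control on the log2(value + 1) scale is shown for the 32 tested members, with bars of 1 SE from limma. Black circles use all 10 libraries and orange diamonds leave out AdCKO 1, 2 and 4. With all libraries 31 of the 32 lie above 0, and without the 3 libraries most lie near 0, with Des, Mb, Tpm2, Actn2, Acta1 and Tpm1 to the right and Myl1, Eno3 and Myl3 to the left.

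Among the thick filament genes, none of 8 was called in either direction (4 were higher at an unadjusted p under 0.05, where 33.3% of all tested genes were higher, and 5 of the 8 passed the filter only through AdCKO). Myh4, the myosin heavy chain of the fastest fibres (chr11:67051314-67073949, plus strand of mm9), was at 2.75, 2.33, 3.14, 2.31 and 2.79 in Control 1 to 5 and 467, 2364, 3.77, 612 and 2.62 in AdCKO 1 to 5. AdCKO 3 was just above the Control range and AdCKO 5 was within it (log2 fold change 4.82, SE 1.58, adjusted p = 0.0175). Myh1, the heavy chain of fast IIx fibres, was at 2.24, 2.00, 2.56, 1.99 and 2.23 in Control 1 to 5 and 294, 585, 2.19, 329 and 2.21 in AdCKO 1 to 5. AdCKO 3 and 5 lay within its Control range (log2 fold change 4.15, SE 1.39, adjusted p = 0.0196). Myh2, of fast IIa fibres, was at 1.88 to 2.55 in Control and 216, 607, 1.91, 173 and 1.86 in AdCKO 1 to 5 (log2 fold change 3.86, SE 1.35, adjusted p = 0.0238). Without AdCKO 1, 2 and 4 the log2 fold changes of Myh4, Myh1 and Myh2 were 0.19, −0.00094 and −0.11. Between 18.8% and 26.5% of the 50-base windows of the transcripts of Myh1, Myh2, Myh4 and Myh7 also occur in another gene, so reads of these myosins may be shared in part.

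The slow thick filament genes followed another order. Myh7, the heavy chain of slow fibres, was at 0.853, 0.832, 0.987, 0.829 and 0.886 in Control 1 to 5 and 1.31, 3.61, 0.666, 63.7 and 0.765 in AdCKO 1 to 5. A single library, AdCKO 4, was far above the others (log2 fold change 1.29, SE 0.82, adjusted p = 0.185). Myl2, the regulatory light chain of slow and cardiac muscle, was at 5.30 to 5.47 in Control and 5.23, 18.6, 5.15, 36.9 and 5.10 in AdCKO 1 to 5. Mylpf, its fast counterpart, was at 13.6 to 18.7 in Control and 347, 1404, 11.1, 515 and 13.7 in AdCKO 1 to 5, with a log2 fold change of −0.32 without AdCKO 1, 2 and 4.

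The essential light chains were below every Control library in both AdCKO 3 and AdCKO 5. Myl1, the fast essential light chain (chr1:66970870-66991630, minus strand), was the most abundant member in Control and was at 359, 397, 330.04, 362 and 384 in Control 1 to 5 and 557, 1659.9, 138, 692 and 159 in AdCKO 1 to 5. AdCKO 1, 2 and 4 lay above every Control library, and AdCKO 3 and 5 lay below every one. Its log2 fold change was 0.22 (SE 0.55) with all libraries and −1.30 (SE 0.10, adjusted p = 6.13e-06) by limma without AdCKO 1, 2 and 4. Myl3, the slow essential light chain, was at 15.3, 19.8, 16.1, 19.6 and 16.1 in Control 1 to 5 and 8.75, 15.8, 8.56, 54.4 and 11.2 in AdCKO 1 to 5. AdCKO 1, 3 and 5 were below every Control library, AdCKO 2 was within their range and AdCKO 4 was above. With all libraries its log2 fold change was −0.19 (SE 0.39), which became 0.26 when every library was given the same total, a scaling that moved the median of all tested genes from −0.01 to 0.46. Without AdCKO 1, 2 and 4 it was −0.76 (SE 0.15, adjusted p = 0.00191 by limma). For Myl1 and Myl3, these values rest on 2 AdCKO libraries, the others being left out for the members' own high levels. Their p-values are not an independent test.

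Of the 9 tested thin filament genes, 3 were called higher (25.6% of all tested genes were). Tnnt1, Tnnc1 and Neb passed the filter only through AdCKO. Acta1, skeletal muscle α-actin (chr8:126415658-126418675, minus strand), was at 47.6, 39.4, 56.1, 49.7 and 44.2 in Control 1 to 5 and 1962, 7056, 93.3, 2989.9 and 74.5 in AdCKO 1 to 5. The highest Control library lay below the lowest AdCKO library, and AdCKO 3 and 5 were at 1.97 and 1.57 times the Control mean. Its mean was 47.4 ± 6.20 in Control and 2435 ± 2869.6 in AdCKO (± SD of 5 libraries), with a log2 fold change of 4.03 (SE 1.10, adjusted p = 0.00654) by limma. The call was lost when AdCKO 1, 2 or 4 or any single Control library was left out, and without AdCKO 1, 2 and 4 together the log2 fold change was 0.81 (SE 0.15, adjusted p = 0.00108). About 2.0% of the 50-base windows of Acta1 also occur in other genes, mainly Actb.

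Tropomyosins lie along the actin filament and are made in many cell types besides muscle. Tpm1 (chr9:66870400-66897020, minus strand) was at 249.9, 279, 263, 268 and 265 in Control 1 to 5 and 661, 1708, 459, 921 and 442 in AdCKO 1 to 5. All AdCKO libraries exceeded all Control libraries, and the fold change had a smaller SE than that of Acta1. By limma it had a log2 fold change of 1.47 (SE 0.30, adjusted p = 0.000942), and of 0.77 (SE 0.087, adjusted p = 5.14e-05) without AdCKO 1, 2 and 4. Tpm2 (chr4:43526598-43536426, minus strand), which is also made in smooth muscle, was at 33.0, 25.8, 37.5, 31.3 and 30.7 in Control 1 to 5 and 439, 1338, 64.0, 626 and 60.8 in AdCKO 1 to 5. The groups again did not overlap (log2 fold change 3.07, SE 0.74, adjusted p = 0.00287), and without AdCKO 1, 2 and 4 the value was 0.97 (SE 0.14, adjusted p = 0.000254).

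**Figure D3:**
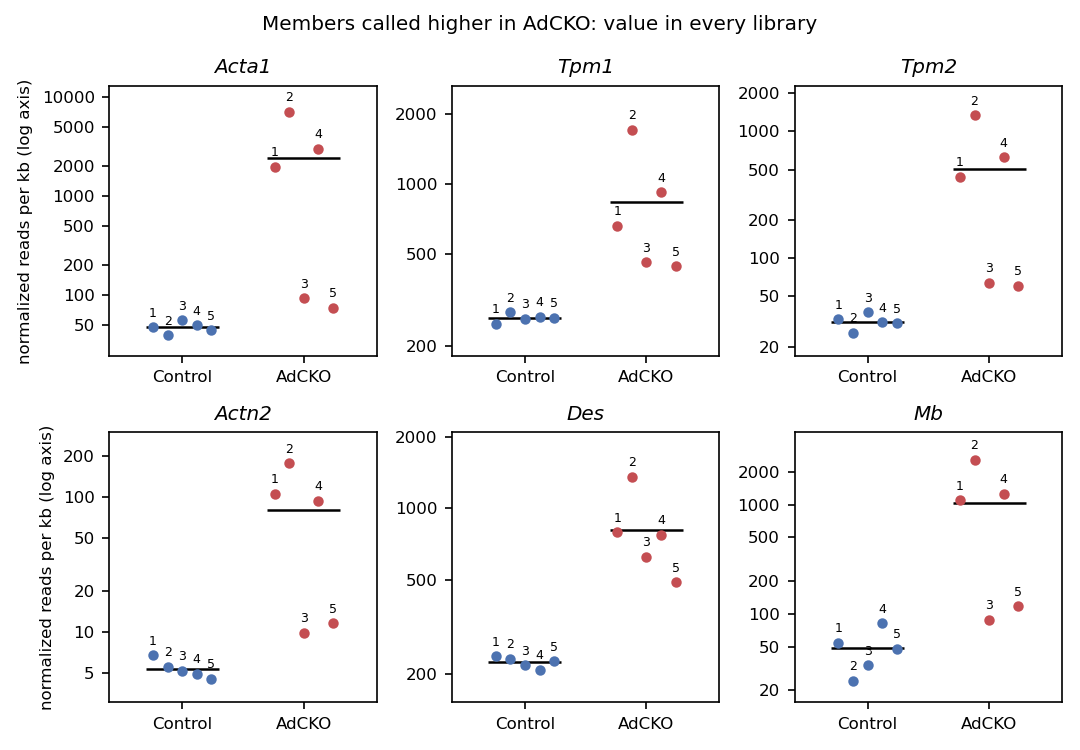
Points are the normalized reads per kb (log axis) of the 6 members called higher in AdCKO in each of the 5 Control (blue) and 5 AdCKO (red) libraries, numbered by replicate, and black lines are group means. AdCKO 3 and 5 lie between the Control libraries and AdCKO 1, 2 and 4 for each gene, for example at 93.3 and 74.5 for Acta1 and at 625 and 488 for Des.

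The troponins sense calcium (troponin C), inhibit the actin and myosin interaction (troponin I) and bind tropomyosin (troponin T). The fast genes Tnni2, Tnnt3 and Tnnc2 were high in 3 AdCKO libraries and within or below the Control range in the other two. Tnni2 was at 15.9 to 18.0 in Control and 971, 3875, 17.5, 1522 and 17.0 in AdCKO 1 to 5. Tnnt3 was at 11.0 to 13.5 in Control and 675, 2511, 8.45, 1029 and 9.24 in AdCKO 1 to 5. Tnnc2 was at 15.2 to 19.5 in Control and 735, 3199.98, 16.7, 1339.7 and 15.2 in AdCKO 1 to 5. None of these genes was called, with adjusted p-values from limma of 0.0206, 0.0333 and 0.0236. Tnnc2 shares exon sequence with Ube2c on the opposite strand, and the strandedness of the libraries was not given, so reads of such pairs cannot be told apart. Exons of protein-coding genes on the opposite strand also overlap those of Myh1, Atp2a1, Ckm, Ckmt2 and Mb. Exons of non-coding genes overlap those of Myh1, Myh2, Des, Ttn, Ryr1 and Casq1. The limit applies to the low values of all these genes.

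The slow troponins were highest in AdCKO 4 and not in AdCKO 2. Tnnc1, troponin C of slow and cardiac muscle, was at 7.63, 10.7, 9.25, 10.6 and 10.7 in Control 1 to 5 and 8.37, 8.62, 7.33, 65.6 and 7.62 in AdCKO 1 to 5. AdCKO 4 was the only AdCKO library above the Control range, and without it the log2 fold change turned from 0.32 to −0.25. Tnnt1 was at 5.13 to 6.30 in Control and 5.50, 36.4, 5.72, 80.2 and 5.68 in AdCKO 1 to 5. Tnni1, which was not tested for its low level, was at 2.48, 2.46, 2.79, 2.46 and 2.52 in Control 1 to 5 and 2.29, 4.34, 2.27, 14.1 and 2.38 in AdCKO 1 to 5. Its Control 3 value was far from the other Control libraries, within a narrow range. Neb, nebulin, the ruler of the thin filament, was at 0.985 to 1.55 in Control and 25.4, 80.8, 0.861, 31.4 and 1.31 in AdCKO 1 to 5 (log2 fold change 2.54, SE 0.90, adjusted p = 0.0254).

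Of the 4 genes of the Z-disc and scaffold, Des and Actn2 were called higher (25.6% of all tested genes were). Actn2, Actn3 and Ttn passed the filter only through AdCKO. Des, desmin, is the intermediate filament that ties Z-discs together and is made in smooth muscle as well (chr1:75356867-75365154, plus strand). It was at 238, 233, 218, 209 and 227 in Control 1 to 5 and 793, 1357, 625, 775 and 488 in AdCKO 1 to 5. Every AdCKO library was at more than 2 times the Control mean. The mean of Des was 225 ± 11.6 in Control and 808 ± 331 in AdCKO (± SD of 5 libraries), with a log2 fold change of 1.75 (SE 0.21, adjusted p = 1.2e-05) by limma, and a value of 1.29 (SE 0.11, adjusted p = 9.51e-06) without AdCKO 1, 2 and 4. Des had the smallest p of the 32 tested members.

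Actn2, α-actinin of the Z-disc (chr13:12361694-12432999, minus strand), was at 6.73, 5.53, 5.18, 4.91 and 4.53 in Control 1 to 5 and 106, 179, 9.94, 93.8 and 11.6 in AdCKO 1 to 5. The groups did not overlap (log2 fold change 2.92, SE 0.69, adjusted p = 0.00273), and the value was 0.89 (SE 0.15, adjusted p = 0.000588) without AdCKO 1, 2 and 4. Its fast-fibre relative Actn3 was at 3.21 to 4.13 in Control and 82.5, 474, 2.99, 122 and 3.95 in AdCKO 1 to 5, with AdCKO 3 below and AdCKO 5 within the Control range. Ttn, titin, the spring that holds the thick filament in place, was at 0.211, 0.18, 0.227, 0.211 and 0.227 in Control 1 to 5 and 17.4, 62.4, 0.142, 28.3 and 0.228 in AdCKO 1 to 5. AdCKO 3 was below every Control library and AdCKO 5 barely above (log2 fold change 2.83, SE 0.99, adjusted p = 0.0241). Control values this low depend on how low values were moderated, so the ratio of 103 between the group means of Ttn has no firm size.

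None of the 5 tested calcium genes was called (5 were higher at an unadjusted p under 0.05, where 33.3% of all tested genes were higher, and 4 of the 5 passed the filter only through AdCKO). Ryr1, the calcium release channel, was at 0.781, 0.649, 0.715, 0.644 and 0.773 in Control 1 to 5 and 27.6, 88.6, 0.863, 24.1 and 0.876 in AdCKO 1 to 5. The groups did not overlap, by a narrow margin in AdCKO 3 and 5 (p = 0.0079 by exact two-sided permutation of the libraries, the lowest value that groups of 5 allow). By limma the log2 fold change of 2.78 (SE 0.93, adjusted p = 0.0193) missed the threshold, and without AdCKO 1, 2 and 4 it was 0.13 (SE 0.10, adjusted p = 0.319). Atp2a1, the fast-fibre SERCA pump (chr7:133589374-133606587, minus strand), was at 5.99, 6.27, 8.51, 6.22 and 6.15 in Control 1 to 5 and 765, 3057, 5.47, 978 and 5.54 in AdCKO 1 to 5. Its Control 3 value was far from the other Control libraries, and AdCKO 3 and 5 were below all of them (log2 fold change 4.38, SE 1.56, adjusted p = 0.026). Casq1, calsequestrin of fast fibres, which binds calcium in the reticulum, was at 6.91, 7.52, 7.87, 8.80 and 9.44 in Control 1 to 5 and 81.7, 385, 8.91, 147 and 5.45 in AdCKO 1 to 5.

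Other calcium genes showed the same split. Pvalb, the calcium buffer of fast fibres, was at 9.56 to 10.6 in Control and 157, 1454, 7.53, 526 and 8.52 in AdCKO 1 to 5. Cacna1s, the voltage sensor of the T-tubule, was at 1.16 to 1.37 in Control and 13.4, 51.2, 0.896, 19.1 and 1.14 in AdCKO 1 to 5. Casq2 and Sln were not tested for their low levels. Casq2, calsequestrin of slow and cardiac muscle, was at 3.83 to 5.78 in Control and 4.61, 6.87, 4.73, 6.41 and 4.40 in AdCKO 1 to 5, with overlapping groups. Sln, sarcolipin, a small inhibitor of SERCA, was at 5.42 to 5.53 in Control and 5.82, 19.7, 5.12, 13.1 and 5.30 in AdCKO 1 to 5. It was above Control in AdCKO 1, 2 and 4 and just below in AdCKO 3 and 5 (exact two-sided permutation test, p = 0.294).

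Of the 6 energy genes, only Mb was called higher (25.6% of all tested genes were). Ckmt2 passed the filter only through AdCKO. Mb, myoglobin (chr15:76845917-76881098, minus strand), which stores oxygen, was at 54.1, 24.3, 33.8, 82.0 and 47.8 in Control 1 to 5 and 1095, 2583, 88.1, 1254 and 117 in AdCKO 1 to 5. The lowest AdCKO value was close to the highest Control value of 82.0, and the Control libraries spread more, relative to their mean, than for other members (log2 fold change 3.51, SE 0.84, adjusted p = 0.00275). Without AdCKO 1, 2 and 4 it missed the threshold, at 1.17 (SE 0.36, adjusted p = 0.0192). Its exons overlap those of Apol6 on the opposite strand. Ckm, the muscle creatine kinase that buffers ATP (chr7:19996443-20006932, plus strand), was at 12.6, 12.1, 14.5, 12.0 and 13.5 in Control 1 to 5 and 1389.98, 5354, 9.50, 1985 and 11.9 in AdCKO 1 to 5. It was at 107, 414 and 153 times its Control mean in AdCKO 1, 2 and 4 and below every Control library in AdCKO 3 and 5 (log2 fold change 4.38, SE 1.57, adjusted p = 0.0267). Pygm, the muscle glycogen phosphorylase, was at 15.4, 18.7, 14.2, 15.5 and 14.7 in Control 1 to 5 and 255, 889, 17.8, 306 and 17.8 in AdCKO 1 to 5. Its AdCKO 3 and 5 values were within the Control range (log2 fold change 2.85, SE 0.93, adjusted p = 0.0169).

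Eno3, the muscle enolase of glycolysis, was at 44.8, 40.9, 56.4, 46.5 and 49.3 in Control 1 to 5 and 358, 823, 22.8, 304 and 26.7 in AdCKO 1 to 5. It resembled Myl1, with AdCKO 1, 2 and 4 above every Control library and AdCKO 3 and 5 below. The log2 fold change was 1.56 (SE 0.85) with all libraries and −0.91 (SE 0.14, adjusted p = 0.000332) by limma without AdCKO 1, 2 and 4. That choice of libraries was made on the members' own levels, so the p-value is not an independent test. Pgam2, the muscle phosphoglycerate mutase, was at 17.5, 25.5, 25.4, 24.3 and 23.2 in Control 1 to 5 and 233, 543, 17.7, 225 and 14.6 in AdCKO 1 to 5. Control 1 was its lowest Control library by a wide gap. Ckmt2, the mitochondrial creatine kinase of muscle, was at 5.49 to 6.54 in Control and 174, 282, 4.13, 129 and 5.73 in AdCKO 1 to 5 (log2 fold change 2.77, SE 1.01, adjusted p = 0.0291).

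The library with the highest value differed between fast-fibre members and most slow-fibre members. AdCKO 2 was the highest, AdCKO 4 the next and AdCKO 1 the third for 21 members. For 7 members, Myh2 of fast IIa fibres among them, AdCKO 1 came before AdCKO 4. For the 26 members at least 2-fold above the Control mean in each of these libraries, the excess over the Control mean in AdCKO 2 was a median 2.61 times that in AdCKO 4, from 1.78 for Myh1 to 3.96 for Actn3. The excess in AdCKO 1 was a median 0.730 times that in AdCKO 4, from 0.286 for Pvalb to 1.37 for Ckmt2. AdCKO 2 was the highest library for 29 members. AdCKO 4 was the highest for the other 6, Myh7, Myl2, Myl3, Tnni1, Tnnt1 and Tnnc1, all of them genes of slow fibres. Casq2, the remaining slow-fibre member, was highest in AdCKO 2, at 6.87 against 6.41 in AdCKO 4. The 12 fast-fibre members summed to 438 to 487 in Control and to 5350.0, 21577, 224, 7985 and 244 in AdCKO 1 to 5. Myl1 alone was at 330 to 397 in Control and at 138 and 159 in AdCKO 3 and 5. The lower fast-fibre sums of AdCKO 3 and 5 were therefore largely those of Myl1. The 7 slow-fibre members summed to 42.7 to 49.0 in Control and to 36.1, 94.2, 34.4, 321 and 37.2. In AdCKO 1, where fast-fibre members were far above Control, the summed level of the slow-fibre members was below the Control range. A share of normalized reads weights genes by length and divides by library totals, which were lower in AdCKO than in Control. As such a share, the slow-fibre members took 0.000803% in AdCKO 1 and 0.000616% to 0.000702% in Control. In AdCKO 3 and 5, where their summed level was also below Control, they took 0.000735% and 0.000723%. Markers of cardiac muscle, which shares several slow genes, summed to 6.97 to 7.27 in Control and 8.93, 8.38, 8.17, 11.7 and 7.17 in AdCKO 1 to 5. None of the 5 in the table passed the filter. Myh6 was at 0.587 to 0.655 in Control and 0.905, 1.26, 0.529, 4.23 and 0.664 in AdCKO 1 to 5. It is the main gene sharing 50-base windows with Myh7. Ryr2 was also highest in AdCKO 4, while Nppa, Tnni3 and Mybpc3 were highest in other libraries.

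Isoform shares showed the same difference between libraries. Of the summed level of Myh1, Myh2, Myh4 and Myh7, Myh4 made up 47.7% in AdCKO 1, 66.4% in AdCKO 2 and 52.0% in AdCKO 4. Myh7 made up 0.134%, 0.102% and 5.41% of it. Slow troponin C (Tnnc1) made up 1.13%, 0.269% and 4.67% of Tnnc1 and Tnnc2 together. Shares in Control, AdCKO 3 and AdCKO 5 rest on values too low to read.

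**Figure D4:**
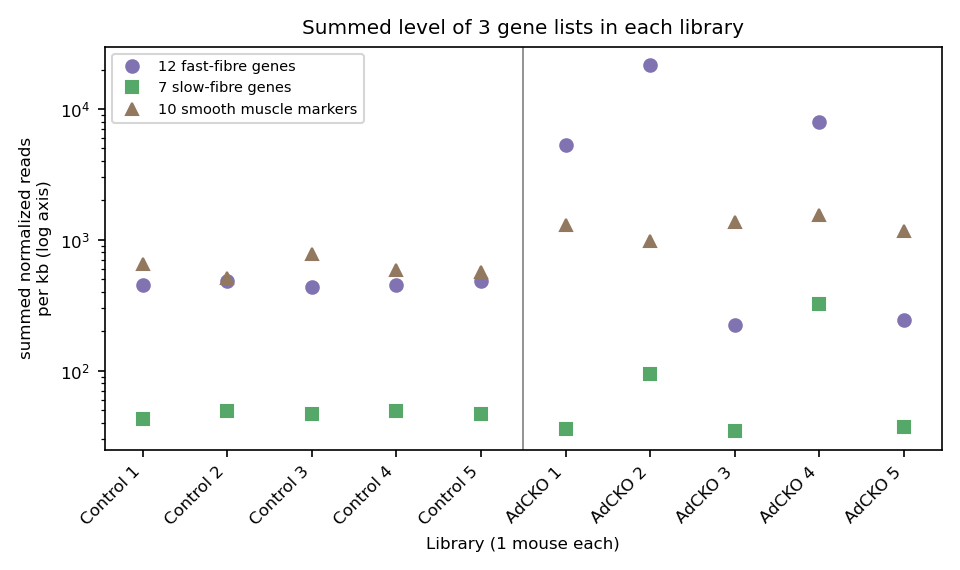
Points give the summed normalized reads per kb (log axis) of 12 fast-fibre members (circles), 7 slow-fibre members (squares) and 10 smooth muscle markers (triangles) in each of the 10 libraries. Fast-fibre genes reach 21577 in AdCKO 2, slow-fibre genes peak at 321 in AdCKO 4, and smooth muscle markers lie above Control in all 5 AdCKO libraries. Myl1 makes up most of the fast-fibre sum in Control.

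Most markers of other cell types had a different pattern from the fast-fibre genes. Of 9 tested smooth muscle markers (of 10 listed), 8 were called higher in AdCKO, against 25.6% of all tested genes. Without AdCKO 1, 2 and 4, 7 were called higher, against 18.7%. The summed level of the 10 markers was 509 to 776 in Control and 1305, 974, 1363, 1561 and 1174 in AdCKO 1 to 5. Among the AdCKO libraries it was lowest in AdCKO 2, where most members were highest. Acta2, smooth muscle actin, had a log2 fold change of 1.46 with all libraries and 1.51 without AdCKO 1, 2 and 4. Synm, the tested marker without a call, was closer to the skeletal pattern. It was at 32.6 to 43.3 in Control and 48.7, 112, 31.9, 59.1 and 27.9 in AdCKO 1 to 5. Lmod1 was also highest in AdCKO 2, at 31.6. Macrophage markers (4 of 4 tested called higher, against 25.6%) summed to 359 to 1097 in Control and 5527 to 7550.5 in AdCKO. Fibroblast markers (4 of 4 called higher, against 25.6%) summed to 661 to 927 and 2444 to 3478. Adipocyte markers (5 of 6 called lower, against 28.0% of all tested genes) fell, as given above. The summed level of endothelial markers (1 of 4 called higher, against 25.6%) overlapped between groups. No marker was at 0 in any library, as no gene in the table is. The part of these cell types in the values of Des, Tpm1, Tpm2, Acta1, Actn2, Mb, Myl1, Myl3 and Eno3 was not tested.

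Genes outside the list but from the same pathways showed both patterns. Of 37 other sarcomere genes, 29 were tested and 6 were called higher (background 25.6%), with a median log2 fold change of 2.24, and 27 were higher at an unadjusted p under 0.05 (33.3% of all tested genes). Of the 29, 24 had a Control mean under 10 and passed the filter only through their AdCKO values, Flnc and Pdlim3 among them, so these counts and the median describe the genes that passed. The 6 calls became 23 without AdCKO 3, 22 without AdCKO 5 and 2 to 4 without any one of the other libraries. The share of all tested genes called in these fits is likewise not given. Flnc, filamin C of the Z-disc, was at 2.36 to 4.34 in Control and 26.5, 53.2, 9.36, 24.3 and 6.56 in AdCKO 1 to 5, and was the 1 gene of this list still called higher without AdCKO 1, 2 and 4 (log2 fold change 1.13). Fhl1, a LIM protein of muscle and other cells, had a log2 fold change of 0.96 (SE 0.21, adjusted p = 0.0017) by limma. Pdlim3, a PDZ and LIM protein of the Z-disc, had a log2 fold change of 1.80 (SE 0.44, adjusted p = 0.00331). Unc45b, a myosin chaperone, had a log2 fold change of 0.48 (SE 0.13, adjusted p = 0.00756). Without AdCKO 1, 2 and 4, Myom3 was the 1 gene of the list called lower. Of all tested genes, 18.7% were then called higher and 19.3% lower.

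Of 20 other genes of calcium handling and excitation, 15 were tested. Called were 3 higher (25.6% of all tested genes were) and 1 lower (28.0%). Of the 15, 9 passed the filter only through AdCKO, Cacna2d1 and Jph2 among them. Cacna2d1, the auxiliary subunit of the calcium channel that Cacna1s forms, was at 9.31, 6.24, 5.72, 6.46 and 5.89 in Control 1 to 5 and 21.6, 37.8, 20.5, 27.2 and 18.0 in AdCKO 1 to 5. All AdCKO libraries were above all Control libraries (log2 fold change 1.72, SE 0.19, adjusted p = 6.82e-06), and the value without AdCKO 1, 2 and 4 was 1.41 (SE 0.17, adjusted p = 8.16e-05). Jph2, which joins the T-tubule to the reticulum, had a log2 fold change of 2.00 (SE 0.47, adjusted p = 0.00256). Chrnb1, a subunit of the acetylcholine receptor, had a log2 fold change of 0.56 (SE 0.13, adjusted p = 0.00188). Fxyd1, phospholemman, went the other way (log2 fold change −0.52, SE 0.13, adjusted p = 0.00294).

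Among 15 other energy genes of muscle, 14 were tested. Of these, 1 was called higher (25.6% of all tested genes were) and 7 lower (28.0%). The higher gene was Cox6a2, a subunit of cytochrome oxidase made in muscle and brown fat, at 21.0 to 25.1 in Control and 360.3, 976, 256, 575 and 279.97 in AdCKO 1 to 5. The lower genes included Gys1, glycogen synthase (log2 fold change −0.98, SE 0.072, adjusted p = 2.68e-07), Ldha, lactate dehydrogenase A (log2 fold change −0.97, SE 0.089, adjusted p = 1.47e-06), and Slc2a4, the insulin-regulated glucose transporter (log2 fold change −1.15, SE 0.12, adjusted p = 4.86e-06). All of them were abundant in Control, at 1004, 9069 and 2078 on average. Of 12 myogenic factors listed, 9 were in the table and 4 were tested. Mef2c, which acts with the MyoD family and in other cell types, was called higher (log2 fold change 1.08, SE 0.21, adjusted p = 0.000789 by limma). It was 1 of 4 tested, against 25.6% of all tested genes. None was called lower (28.0% of all tested genes were), and 0 were lower at an unadjusted p under 0.05 by limma (35.2%). Among the factors not tested for their low levels, Myf6 was at 3.27 to 3.37 in Control and 9.04, 14.5, 3.00, 8.05 and 3.16 in AdCKO 1 to 5. Vgll2 was at 2.72 to 2.82 in Control and 6.48, 15.9, 2.43, 11.6 and 2.60 in AdCKO 1 to 5. Both were above Control in AdCKO 1, 2 and 4 only. Pax3, Myod1 and Six4, also untested, differed less between group means. Pax7, Myf5 and Myog were not analysed here.

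A score of the 37 other sarcomere genes was also used as a covariate in limma, with all libraries kept. It was 2.38 to 2.46 in Control and 4.77, 6.02, 2.33, 4.94 and 2.40 in AdCKO 1 to 5. With it, the 6 called members kept their call, with log2 fold changes of 0.96 for Acta1, 0.70 for Tpm1, 1.02 for Tpm2, 1.01 for Actn2, 1.25 for Des and 1.28 for Mb. Myl1, at −1.31, and Eno3, at −0.80, were called lower (adjusted p = 3.48e-06 and 0.000378 by limma). Myl3, at −0.67, was not called (adjusted p = 0.231). Of the 12 fast-fibre members, 0 were called higher under it by limma and Myl1 was called lower. The score was measured in the same libraries and was higher in AdCKO 1, 2 and 4 only, so it is not independent of group. It sets apart the same libraries that were left out above. The calls and p-values of this fit are therefore not an independent test. The share of all tested genes called with the score is not given here.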

How the data were processed

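Libraries of polyadenylated RNA from iBAT were grouped by the genotype in their labels (5 Control, 5 AdCKO). Per the study's methods and processing notes, the authors used STAR (genome mm9), iRNA-seq for exon counts and DESeq2 for normalization. The deposited unit is a signal, normalized reads per kb rather than counts, moderated by a transformation not given in the sources used here. The deposited group means, fold changes, adjusted p-values and lists of called genes hold the authors' own comparison and were not used.

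Genes with a mean of at least 10 in Control or AdCKO (11244 of 15075) were tested with limma 3.58.1 in R 4.3.3 (two-sided, trend, log2(value + 1), Benjamini-Hochberg, threshold 0.01). The authors' count model, DESeq2, was not run, since it needs counts. The limma script was first tested on simulated data with known changes. Single genes were also compared by exact permutation. Gene coordinates are those of the deposited table (mm9), with starts moved to count from 1. Promoters are RefSeq's on GRCm38.p6, and where a member had several, the first was used. Figures were drawn with matplotlib 3.10.9.

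The members, the lists of other genes and the alternatives were chosen with earlier results of these data known. All 35 members were named. Values in every library were given for the 3 members of each role with the smallest p, for members called in the rarer direction and for members with a library far from the others, and of each other list at most 4 genes with the smallest p and called genes against its direction. Some further genes of these lists, untested ones among them, were named as well. Alternatives were a pseudocount of 0.1 or 10, no filter or a mean of at least 1, the same total in every library, quantile normalization, other limma settings, the replicate number as a block, a threshold of 0.05, a muscle score as a covariate, and each library left out. Replicate numbers name mice and do not pair them. Same-numbered libraries deviated together with correlations of −0.27 to 0.098. Precision is given as the spread among mice.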

Additional observations from a re-analysis of the deposited data

Results flagged for a closer look

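In 5 of the 72 groups of 5 libraries checked, 1 library lay far from the other 4, with a gap to its neighbour of over 0.71 of the range. Chance gives such a gap in about 1 in 20 groups. Myh7 was at 63.71 in AdCKO 4, where the other AdCKO libraries were at 0.666 to 3.61. Tnnc1, also a slow-fibre gene, was at 65.56 in the same library and at 7.33 to 8.62 in the others. Myh7 was also above every Control library in AdCKO 1 and AdCKO 2, at 1.31 and 3.61, and Tnnc1 was above the Control range in AdCKO 4 only. Among Control libraries, Atp2a1 was at 8.508 in Control 3, where the others were at 5.99 to 6.27. Tnni1 was at 2.786 in Control 3 and at 2.46 to 2.52 in the others. Pgam2 was lowest in Control 1, at 17.47, where the others were at 23.2 to 25.5. The cause of these gaps was not tested.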

How the results depend on the processing

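The 6 higher calls among the 32 tested members remained 6 with a pseudocount of 0.1 or 10, with no filter or a minimum mean of 1, with quantile normalization, without the trend and with the muscle score, and became 9 with the same total in every library. They fell to 2 (Des and Tpm1) with a robust trend, and rose to 25 with array quality weights, which weighted AdCKO 5 least, and to 24 at a threshold of 0.05. Leaving out 1 library gave 5 to 25 higher calls, with 23 without AdCKO 3 and 25 without AdCKO 5, and 0 to 1 lower calls (Myl3, without AdCKO 4). Lower calls rose from 0 to 2 with the muscle score (Myl1 and Eno3) and to 3 without AdCKO 1, 2 and 4, an alternative chosen after seeing the data. Replicate numbers did not pair the mice. With the replicate number as a block, 6 members were still called higher, and the other sarcomere genes fell from 6 higher calls to 3. Shares of all tested genes were given only for the main fit, the threshold of 0.05 and the fit without AdCKO 1, 2 and 4. Counts under the other settings, here and for the other sarcomere genes, lack such a background.

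For the other sarcomere genes, higher calls were 13 with the same total in every library, 2 with quantile normalization, 3 with a robust trend, 25 with array quality weights, 25 at a threshold of 0.05, 2 to 23 with 1 library left out (23 without AdCKO 3, 22 without AdCKO 5, and 2 to 4 without any one of the others), and 1, with 1 lower call, without AdCKO 1, 2 and 4.

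The sign of the log2 fold change turned without AdCKO 1, 2 and 4 for Myh1 (−0.00094), Myh2 (−0.11), Myh7 (−0.13), Myl1 (−1.30), Myl2 (−0.060), Mylpf (−0.32), Tnnt1 (−0.017), Tnnt3 (−0.41), Tnnc1 (−0.34), Tnnc2 (−0.084), Neb (−0.046), Actn3 (−0.025), Ttn (−0.033), Atp2a1 (−0.22), Casq1 (−0.18), Pvalb (−0.29), Cacna1s (−0.15), Ckm (−0.26), Ckmt2 (−0.22), Eno3 (−0.91) and Pgam2 (−0.49), and for the median of the members (−0.072). With the muscle score as a covariate it turned for Myl1 (−1.31), Myl2 (−0.042), Mylpf (−0.18), Tnnt1 (−0.017), Tnnt3 (−0.16), Tnnc1 (−0.13), Casq1 (−0.12), Pvalb (−0.22), Cacna1s (−0.11), Ckmt2 (−0.0043), Eno3 (−0.80) and Pgam2 (−0.37). It also turned for Myl3 with the same total (0.26), for Tnnc1 with quantile normalization (−0.022) and without AdCKO 4 (−0.25), and for Myl1 without AdCKO 2 (−0.27). With 1 library left out, Myl1 ranged from −0.27 to 0.63 and Tnnc1 from −0.25 to 0.50. Library depth is unknown, so whether a low member such as Ttn or Myh7 differed between AdCKO 3 or 5 and Control cannot be resolved by counting error.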
